A study of Homo sapiens with 4 samples.

Results

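The regions described here are peaks of RNA polymerase II (RNAPII) that lay far from any strong TAF3 peak and carried neither TAF3 nor a strong H3K4me3 peak in HCT116, a human colorectal carcinoma cell line. They were chosen by 4 measured properties of the deposited peak lists. The peak had to be in the filtered RNAPII list, be under 5000 bp wide, share no base with any TAF3 peak or with a filtered H3K4me3 peak, and lie more than 50 kb from the edge of the nearest filtered TAF3 peak. Of 25013 filtered RNAPII peaks, 23398 were under 5000 bp, 8846 of these shared no base with a TAF3 peak, 8337 of those also lacked a filtered H3K4me3 peak, and 1659 of those lay beyond 50 kb. The 1659 distant RNAPII-only peaks made up 6.63% of all filtered RNAPII peaks and 19.9% of the 8337 RNAPII-only peaks under 5000 bp.

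The study mapped 3 chromatin-bound targets in 1 ChIP-seq library each: TAF3, with a polyclonal serum to its residues 290 to 389, H3K4me3 (histone H3 trimethylated at lysine 4) and RNAPII. A library of input DNA completed the set of 4, and all came from the same line, with no treatment named in the labels. After duplicate removal 16841238 RNAPII tags, 17411155 TAF3 tags, 12560129 H3K4me3 tags and 19185386 input tags remained. There are no replicates, so no p-value is given. Intervals cover the counting of peaks only, and they are too narrow where neighbouring peaks come from 1 stretch of RNAPII signal.

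RNAPII transcribes protein-coding genes, many noncoding RNA genes and, at low level, active enhancers, so its ChIP signal is found at promoters, along gene bodies, past gene ends and at distal elements. TAF3 is a subunit of TFIID, the general transcription factor that recognises core promoters, and its PHD finger binds H3K4me3. H3K4me3 is a mark of active promoters, while distal elements usually carry little of it.

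The distant RNAPII-only peaks were weak among the filtered RNAPII peaks. Fold enrichment is the authors' ratio of RNAPII tags at a summit to those expected there from input. Its median was 18.04 (95% interval 17.4 to 18.7), with quartiles of 12.9 and 24.9 and a range of 5.47 to 212. All 25013 filtered RNAPII peaks had a median of 44.8-fold and a lower quartile of 18.7-fold, so the median of the distant peaks lay under that lower quartile. The median width was 1361 bp (1296 to 1417), within the 5000 bp that the selection allows, and the median tag count was 89 (86 to 91), with a range of 26 to 965 tags. Together these peaks covered 2.66 Mb and held 193208 tags, 1.15% of the RNAPII library. The authors' filter kept peaks with more than 5-fold enrichment whose false discovery rate (FDR) was below 5%, which were 40.7% of the 61456 peaks in the full RNAPII list. Of the 1659, 411 (24.8%) had an FDR of 4% or more, against 21.9% of all 8337 RNAPII-only peaks and 8.93% of all filtered RNAPII peaks. A score of 3100 or more was found in 14 (0.844%), against 1.45% and 33.3%. The score 3100 is the level given to p-values too small to be written, and higher scores also occurred, up to 3154.66 in the 1659.

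Peaks of higher fold enrichment were narrower. Across the 1659 peaks, the rank correlation of fold enrichment was -0.43 with width, 0.14 with distance to TAF3 and -0.19 with tag count. These values are a description, because peaks share 1 library and 1 input. All peaks had passed the authors' filter, and its part in these relations was not tested. The 33 peaks of at least 50-fold enrichment, 1.99% of the 1659 against 1.44% of all 8337 RNAPII-only peaks and 47.6% of all filtered RNAPII peaks, had a median width of 859 bp. They lay on 18 chromosomes, and 25 of them had no other filtered RNAPII peak within 10 kb. The 283 widest peaks, of 2464 bp or more, had a median of 14.1-fold, and 78 of them had no neighbour within that distance. No such neighbour was present at 765 of the 1659, 1801 of all 8337 RNAPII-only peaks and 10781 of all 25013 filtered RNAPII peaks.

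The strongest peak was at chr10:16933344-16934477, in hg19 coordinates counted from 1, as are all positions below. It was 1134 bp wide and held 485 tags at 212-fold enrichment. It lay 73.1 kb from the nearest filtered TAF3 peak, and the nearest filtered RNAPII peak was as far away and carried H3K4me3. Next came chr1:149514030-149514362, which had 122-fold enrichment and 125 tags within 333 bp. Its nearest RNAPII neighbour, 91122 bp away, was another of the 10 strongest peaks, chr1:149605484-149606194, with 85.5-fold enrichment and 89 tags. The third was chr17:19015182-19015500, 319 bp wide, with 97 tags and 112-fold enrichment, and a further distant RNAPII-only peak of 32.1-fold lay 230 bp from it.

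The remaining 6 of the 10 strongest had their nearest filtered RNAPII peak 10.9 to 418 kb away. In each case that neighbour carried H3K4me3 and shared sequence with TAF3, counting also TAF3 peaks that the authors' filter left out. The distances to TAF3 given here are to filtered peaks only. The peak chr10:14227336-14228174 had 332 tags at 108-fold enrichment and lay 417 kb from TAF3. Peaks of 91.1-fold at chr13:45266293-45267003, 90.9-fold at chr3:108581732-108583307 and 90.85-fold at chr6:19417152-19418395 lay 114, 273 and 386 kb from TAF3. The peak chr19:5352203-5353025 (87.4-fold) lay 58.8 kb from filtered TAF3 and 11.4 kb from a filtered H3K4me3 peak. The peak chr11:117996956-117997956 (81.9-fold, 401 tags) lay 124 kb from filtered TAF3 and 17.99 kb from filtered H3K4me3. Their RNAPII neighbours were 10911 and 17994 bp away, so the TAF3 at these neighbours was below the filter and nearer than those distances. Of the 10 strongest peaks, 9 had no other filtered RNAPII peak within 10 kb, against 765 of the 1659. Of the same 10, 0 overlapped an H3K4me3 peak below the filter. The selection itself excludes overlap with filtered H3K4me3. The below-filter share over all 1659 was 9.76%, and 10 peaks are too few to tell 0 from it. No gene is named for any region because the annotation at hand was on another genome build.

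Ranked by tags the order was different. The peak with the most tags, chr22:24311269-24314443, held 965 tags over 3175 bp at 33.8-fold enrichment and stood 54.5 kb from any other filtered RNAPII peak. It was followed by chrX:45600014-45604872, with 919 tags at 57.6-fold over 4859 bp, which opened a run of peaks described below. The next were chr12:76107278-76110885 (692 tags, 60.65-fold), chr12:133195895-133200319 (631 tags, 24.9-fold) and chr5:138270633-138275281 (598 tags, 14.2-fold). These 5 peaks were 3175 to 4859 bp wide, whereas the 10 strongest by fold were 319 to 1576 bp wide.

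**Figure D1:**
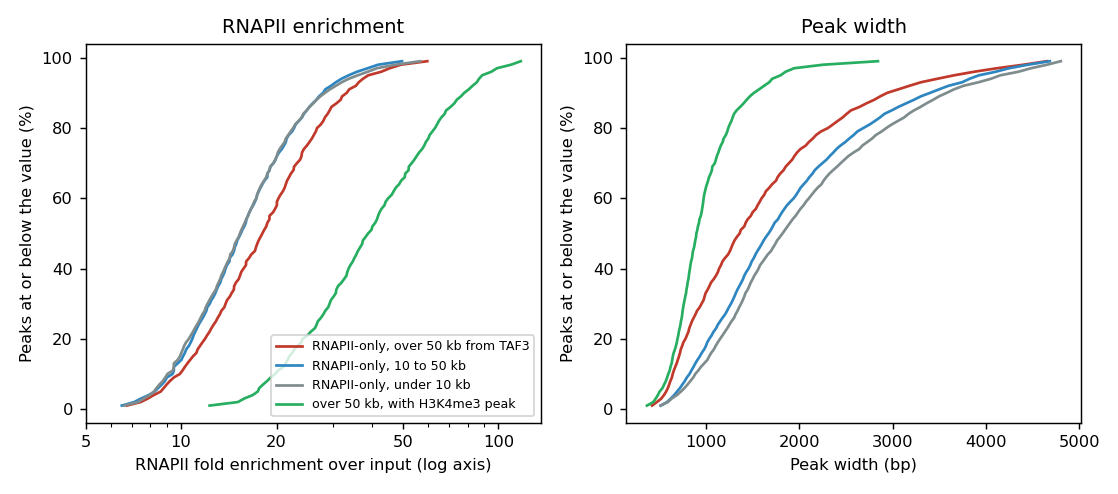
Cumulative share of peaks (%) against RNAPII fold enrichment over input (left, log axis) and peak width in bp (right), from the 1st to the 99th percentile, for the 1659 distant RNAPII-only peaks, the 3520 RNAPII-only peaks at 10 to 50 kb, the 3158 under 10 kb and the 900 RNAPII peaks over 50 kb from TAF3 that carry H3K4me3. The distant peaks lie to the right of the nearer RNAPII-only peaks in enrichment and to the left in width, and far to the left of the H3K4me3-bearing peaks in enrichment.

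Compared with RNAPII-only peaks closer to TAF3, the distant ones had higher fold enrichment and fewer tags. The median was 18.04-fold in the distant peaks, against 15.4-fold (15.2 to 15.8) in the 3520 peaks at 10 to 50 kb and 15.3-fold (15.0 to 15.6) in the 3158 peaks under 10 kb. A fold enrichment above 15.8, the median of all 8337, was reached by 59.5% of the distant peaks and by 47.4% of those at 10 to 50 kb, a difference of 12.1 percentage points (95% Newcombe interval 9.18 to 14.9). The median width was 1361 bp in the distant peaks, against 1671 bp at 10 to 50 kb and 1821 bp under 10 kb, and the median tag count was 89, against 103 and 113.

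The difference in enrichment was seen in the narrower peaks, when all RNAPII-only peaks were cut into 4 width classes of equal number. Among peaks under 1124 bp, the narrowest class, the median was 21.7-fold (21.2 to 22.7) in 646 distant peaks and 19.6-fold (19.0 to 20.2) in 842 peaks at 10 to 50 kb. At 1124 to 1661 bp the medians were 16.0-fold and 14.7-fold. At 1661 to 2464 bp they were 13.4-fold (12.6 to 14.2) and 13.1-fold (12.7 to 13.5), and in the widest class 14.1-fold (13.0 to 15.2) and 14.2-fold (13.7 to 14.9), so the intervals overlapped in both wider classes. The peaks under 10 kb from TAF3 had 19.2-, 14.2-, 13.4- and 15.6-fold (15.0 to 16.4) in the 4 classes, and in the widest class the distant peaks had the lower median. At 50-fold or more the distant peaks exceeded those at 10 to 50 kb by 0.995 points (0.31 to 1.83), while the difference from those under 10 kb, 0.34 points, had an interval from -0.42 to 1.22.

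The distant peaks were 1 of 4 kinds of RNAPII peak in the same TAF3-poor sequence. Of 3469 filtered RNAPII peaks over 50 kb from a filtered TAF3 peak, 1659 (47.8%) were the distant RNAPII-only peaks, 900 (25.9%) carried a filtered H3K4me3 peak, 814 (23.5%) lacked that and overlapped a TAF3 peak, which at this distance can only be one that the authors' filter left out, and 96 (2.77%) were 5000 bp or wider. RNAPII enrichment was lowest in the RNAPII-only peaks and the wide ones. The median was 18.04-fold in the RNAPII-only peaks, 38.8-fold (36.9 to 41.03) in those with H3K4me3, 29.3-fold (28.2 to 30.4) in those with left-out TAF3 and 17.04-fold (14.7 to 23.7) in the wide ones. The median tag count was 89 (86 to 91) in the RNAPII-only peaks, 102 (96 to 109) in the H3K4me3 kind and 102 (96 to 107) in the left-out TAF3 kind. At 1361 bp the RNAPII-only peaks were wider than the H3K4me3 kind (898 bp) and the left-out TAF3 kind (979 bp).

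RNAPII-only peaks thinned out with distance from TAF3. There were 0.77 distant peaks per Mb (exact Poisson 95% interval 0.73 to 0.80) in the 2167 Mb that lay over 50 kb from TAF3, against 6.58 per Mb at 10 to 50 kb and 15.2 per Mb within 10 kb. Within the distant class the density went on falling, at 2.40 per Mb between 50 and 100 kb, 1.24 between 100 and 200 kb, 0.38 between 200 and 500 kb and 0.0498 beyond 500 kb. The sequence was measured between the outermost TAF3 peaks of each chromosome and includes unsequenced gaps of the assembly, and 2 of the 1659 lay beyond those outermost peaks. The median distance of the 1659 peaks to TAF3 was 93.3 kb, with quartiles of 66.3 and 154 kb.

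The limit of 50 kb cuts through a continuous range. The peaks just inside it were chr11:47735937-47737494 (25.9-fold, at 50048 bp), chr6:170049593-170051197 (6.35-fold, at 50083 bp) and chr19:16991135-16992493 (18.3-fold, at 50112 bp). Just outside lay chr17:66425938-66429125 (17.1-fold, at 49998 bp), chr17:55979621-55981672 (10.3-fold, at 49991 bp) and chr16:3713983-3716573 (11.7-fold, at 49966 bp). Distance was measured to filtered TAF3 peaks, and 619 of the 1659 (37.3%) had a TAF3 peak of the full list within 50 kb, 242 of them within 10 kb.

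**Figure D2:**
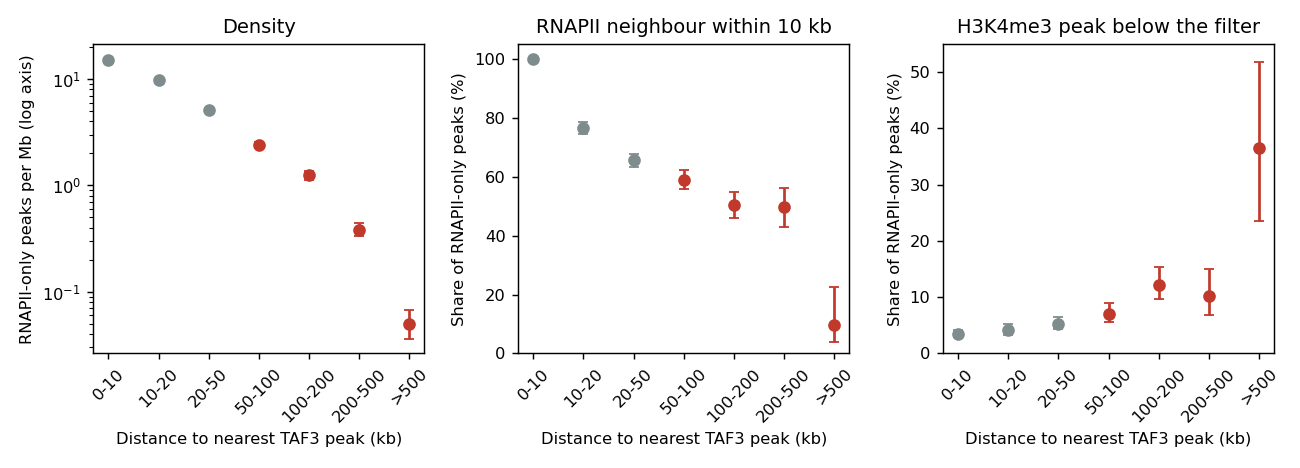
RNAPII-only peaks under 5000 bp by distance to the nearest filtered TAF3 peak (kb), with the peaks over 50 kb in red and the nearer ones in grey: peaks per Mb (left, log axis, Poisson 95% intervals), share with another filtered RNAPII peak within 10 kb (middle) and share overlapping an H3K4me3 peak left out by the authors' filter (right), both in % with Wilson 95% intervals. Density falls from 15.2 to 0.0498 per Mb, the share with a neighbour falls to 9.76% and the H3K4me3 share is 36.6% in the last bin, which holds 41 peaks.

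The peaks farthest from TAF3 were few and small. The 41 peaks beyond 500 kb lay on 14 chromosomes, with a median of 28.1-fold enrichment (25.1 to 32.1), 711 bp and 62 tags. The farthest was chr9:44118613-44118927, 5430.3 kb from the nearest TAF3 peak, with 39 tags at 45.4-fold enrichment. It was followed by chr4:132646143-132646370 (26 tags, 34.7-fold), 2631 kb away, and chr9:40633634-40633929 (29 tags, 32.1-fold), 1945 kb away, both with an FDR of 4.82%, close to the filter. Then came chrX:27398212-27399344 (81 tags, 21.4-fold, 1125 kb) and chr3:7917209-7920725, which held 331 tags at 55.65-fold enrichment and stood 622 kb from any other filtered RNAPII peak.

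The distant peaks divided into isolated ones and ones with RNAPII neighbours. Another filtered RNAPII peak lay within 10 kb of 894 (53.9%, 95% Wilson interval 51.5 to 56.3%), compared with 78.4% of all 8337 RNAPII-only peaks and 70.7% of those at 10 to 50 kb. The share was 56.9% over all filtered RNAPII peaks and 40.6% over the 3469 that lay beyond 50 kb from TAF3, so the distant RNAPII-only peaks were near the share over all peaks and above that of their own territory. The difference between the distant peaks and those at 10 to 50 kb was -16.8 points (-19.6 to -14.0). Under 10 kb the share was 99.9%, where the RNAPII peak at the TAF3 peak itself counts as a neighbour. A neighbour within 1 kb was present at 544 of the distant peaks (32.8%) and at 43.8% of those at 10 to 50 kb. That share was 46.6% over all 8337 RNAPII-only peaks, 28.6% over all filtered RNAPII peaks and 22.7% over those beyond 50 kb from TAF3.

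Isolated peaks were the narrower and more enriched of the 1659. The 765 without a neighbour had a median of 20.06-fold (19.2 to 20.9), 1001 bp and 76 tags, and the 894 with a neighbour had 16.45-fold (15.8 to 17.2), 1633 bp and 101 tags. Enrichment of at least 50-fold was found in 25 isolated peaks (3.27%) and in 8 with a neighbour (0.895%), a difference of 2.37 points (1.02 to 3.95). Isolation referred to the filtered list, and 398 of the 765 (52.0%) had an RNAPII peak below the filter within 10 kb, which leaves 367 with none in either list. This share was not measured in other isolated RNAPII peaks.

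Peaks with neighbours formed runs. Joined across gaps of up to 10 kb, the 1659 peaks made 1160 groups, of which 928 were single peaks, 130 were pairs and 29 held 5 or more. Those 29 groups held 228 peaks. The largest, at chr7:116366337-116445910, held 20 peaks over 79.6 kb, with 9.49- to 31.8-fold enrichment and 2333 tags in all, at 52.2 to 92.0 kb from TAF3. The second, chr10:114826154-114918217, held 18 peaks and 4073 tags over 92.1 kb, at 112 to 202 kb from TAF3, and its peaks were weaker, with a median of 12.6-fold. The third, chr11:5305150-5358821, held 16 peaks over 53.7 kb at a median of 24.97-fold, and lay 166 kb from the nearest filtered H3K4me3 peak and 167 kb from TAF3.

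The next groups were chr4:187487752-187538403, with 14 peaks of 10.7- to 46.3-fold, and chrX:45600014-45650307, with 12 peaks of 12.9- to 57.6-fold. Distant RNAPII-only peaks covered 46.9% to 63.04% of the span of these 5 groups. Of their 80 peaks, 1 overlapped an H3K4me3 peak below the filter, in the group on chromosome X. The X group alone among the 5 had a filtered H3K4me3 peak within 10 kb, 0.162 kb away, and the group on chromosome 4 had one at 10.6 kb. In each of the 5, RNAPII peaks below the filter lay in the same span, 3 to 17 per group. The spans also held filtered RNAPII peaks of 5000 bp or wider, which the width limit leaves out of the groups. There were 2 on chromosome 7, 4 on chromosome 10, 0 on chromosome 11, 2 on chromosome 4 and 1 on chromosome X.

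**Figure D3:**
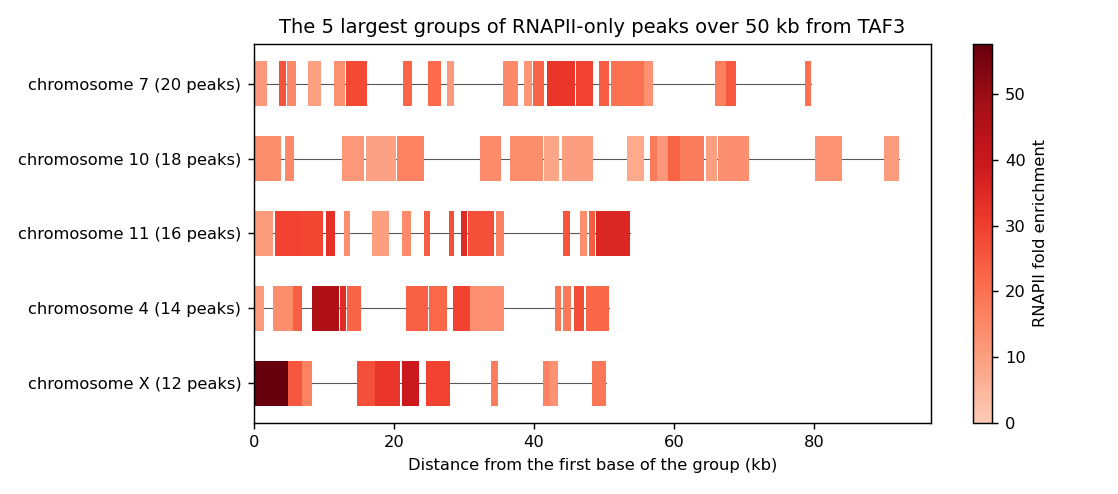
The 5 largest groups of distant RNAPII-only peaks joined across gaps of up to 10 kb; the x axis is the distance in kb from the first base of each group, each bar is 1 peak drawn to its width, and a darker colour stands for a higher RNAPII fold enrichment. The groups span 50.3 to 92.1 kb, and the darkest bar, of 57.6-fold, opens the group on chromosome X. RNAPII peaks of 5000 bp or wider in the same spans are not drawn.

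Some peaks were linked stepwise to TAF3. When all filtered RNAPII peaks were joined across gaps of up to 10 kb, 894 of the 1659 fell in 379 chains, and 120 of them, 7.23% of the 1659 and 13.4% of the 894, shared a chain with a TAF3-bound RNAPII peak. Here TAF3-bound means overlap with a filtered TAF3 peak. A chain with such a peak has to bridge more than 50 kb, because the selection sets that distance. The 120 belonged to 13 chains and reached up to 221 kb from TAF3. A further 84 (5.06%) shared a chain with an H3K4me3-bearing RNAPII peak and no TAF3-bound one, 424 (25.6%) shared one with distant RNAPII-only peaks alone, and 266 (16.0%) shared one with other RNAPII peaks that had neither partner in the filtered lists. An RNAPII peak of 5000 bp or wider was in the chain of 211 (12.7%), a count that overlaps the others. Shares by chain partner were not measured in other RNAPII peaks. The median enrichment was 16.3-fold in the 120 and 18.15-fold in the others.

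The peaks were unevenly spread over the sequence between TAF3 peaks. Of 4887 intervals of over 100 kb between neighbouring TAF3 peaks, 887 (18.2%) held at least 1 of the 1659, and 588 of these held a single peak. At the other end, 15 intervals held 10 or more and together contained 269 peaks. The fullest was on chromosome 2 between 220554808 and 223519728, with 34 peaks of 7.82- to 25.3-fold in 2965 kb. On chromosome 11, between 4629977 and 5525486, 32 peaks lay within 166 kb of sequence, and the interval held 0 filtered H3K4me3 peaks and 0 TAF3 peaks of the full list among 48 filtered RNAPII peaks. On chromosome 12, between 75905897 and 76423397, 23 peaks had a median of 20.6-fold, and 16 TAF3 peaks left out by the filter lay in the same interval. None of the 1659 lay in 461 of the 598 intervals of over 1 Mb, and in 4000 of all 4887 intervals. The selection needs over 50 kb to both ends, so an interval just over 100 kb offers little sequence. Median interval length was 332 kb with a distant peak and 217 kb without. These counts were not made for other RNAPII peaks.

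Chromosomes differed in density. Per Mb over 50 kb from TAF3, chromosome 17 had 1.85 peaks (1.46 to 2.30), chromosome 19 had 1.499 (1.05 to 2.08) and chromosome 22 had 1.48 (0.96 to 2.19). The lowest values were 0.310 on chromosome 18 (0.19 to 0.48) and 0.315 on chromosome X (0.22 to 0.43). As a share of a chromosome's filtered RNAPII peaks, the distant ones ranged from 1.77% on chromosome 19 (36 of 2035) to 12.1% on chromosome 4 (110 of 911). Chromosome 2 had the most, 176. The copy number of these regions in the cell line was not analysed here.

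**Figure D4:**
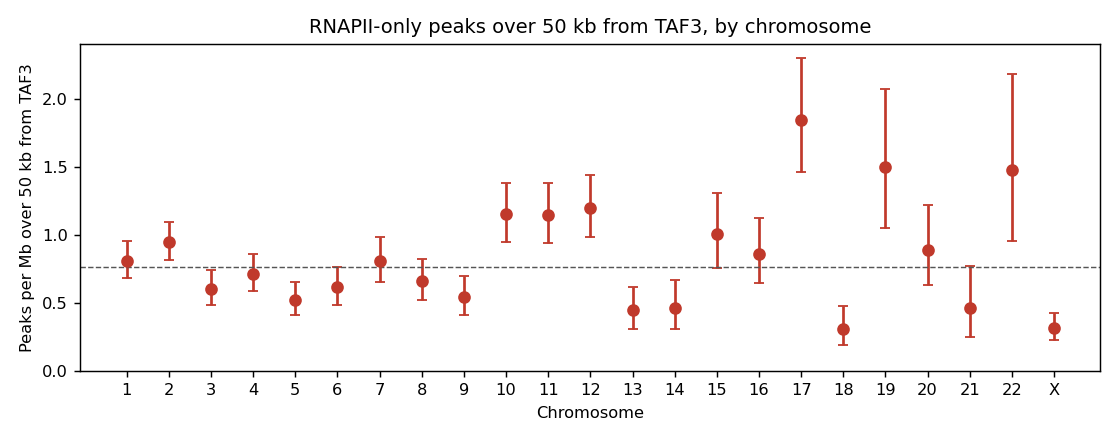
Distant RNAPII-only peaks per Mb of sequence over 50 kb from TAF3 on each chromosome with at least 1 such peak; points are densities, bars exact Poisson 95% intervals and the dashed line the density over all chromosomes, 0.77 per Mb. Chromosome 17 is highest at 1.85 and chromosome 18 lowest at 0.310.

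Strong H3K4me3 peaks were rarely close by. A filtered H3K4me3 peak lay within 10 kb of 75 of the 1659 (4.52%, 3.62 to 5.63%), against 42% of all RNAPII-only peaks and 9.12% of those at 10 to 50 kb. The share was 98.4% under 10 kb, where the H3K4me3 peak at the TAF3 site itself counts, so the distance limit lowers this share by its construction. The 75 lay near 58 H3K4me3 peaks with a median of 42.9-fold H3K4me3 enrichment, at a median gap of 2788 bp. At 60 of the 75 that H3K4me3 peak shared sequence with TAF3 in the full list. The nearest filtered H3K4me3 peak was over 100 kb away for 582 of the 1659 (35.1%), a count that the distance limit raises by its construction. It was not measured for other RNAPII peaks.

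Weak H3K4me3 signal was found on some of the distant peaks. Of the H3K4me3 peaks the rule used the filtered ones only, so overlap with the 3677 that the authors' filter left out was not fixed by it. The rule also removed RNAPII peaks that overlapped any TAF3 peak. Beyond 50 kb, 39.1% of those with left-out TAF3 overlapped left-out H3K4me3, so their removal lowers the share. An overlap with left-out H3K4me3 was present at 162 of the 1659 (9.76%, 8.43 to 11.3%), against 5.28% of all 8337 RNAPII-only peaks. It was present at 4.77% of those at 10 to 50 kb (4.12 to 5.53%) and 3.48% of those under 10 kb (2.90 to 4.18%). The differences were 4.99 points (3.46 to 6.65) and 6.28 points (4.77 to 7.91). Within the distant peaks the share was 7.05% between 50 and 100 kb, 12.2% between 100 and 200 kb, 10.2% between 200 and 500 kb and 36.6% (23.6 to 51.9%) beyond 500 kb, where it rests on 15 of 41 peaks.

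The overlap was mainly a property of narrow and isolated peaks. It was present at 123 of 765 isolated peaks (16.1%) and at 39 of 894 with a neighbour (4.36%), a difference of 11.7 points (8.83 to 14.7). Among peaks under 1124 bp it was present at 20.7% of the distant peaks (17.8 to 24.04%), 12.8% of those at 10 to 50 kb (10.7 to 15.3%) and 8.56% of those under 10 kb (6.57 to 11.1%). In each of the 3 wider classes it was under 4% in all 3 distance classes, with overlapping intervals. By RNAPII enrichment, also in 4 classes, the share was higher in the distant peaks throughout. It was 2.88% (1.52 to 5.37%) in the distant peaks and 0.552% (0.236 to 1.29%) at 10 to 50 kb in the lowest class, and 9.90% (7.38 to 13.2%) and 4.81% (3.59 to 6.42%) in the class of 15.8- to 21.6-fold. In the class between these and in the highest, where it was 16.4% (13.6 to 19.6%) in the distant peaks and 12.7% (10.5 to 15.1%) at 10 to 50 kb, the intervals overlapped. When both classes were limited to RNAPII peaks with an FDR below 2.5%, the difference between them was 1.57 points (-0.29 to 3.69), an interval that includes 0.

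Where both signals were present, their summits were mostly close, as overlap of narrow peaks in part requires. The RNAPII and H3K4me3 summits lay a median of 126 bp apart (quartiles 69.3 and 248 bp), within 200 bp at 103 of 162 (63.6%), and the widest separation was 2366 bp. The H3K4me3 peaks were weak, with a median of 11.5-fold H3K4me3 enrichment (10.6 to 12.8), 26 tags, 727 bp and an FDR of 20.7%, close to the median of 11.9-fold in all 3677 left-out H3K4me3 peaks. RNAPII enrichment was 23.3-fold (21.8 to 26.6) in the 162 and 17.4-fold (16.9 to 17.9) in the other 1497, and the median widths were 729 and 1444 bp. None of the 14 distant peaks with an RNAPII score of 3100 or more had such an overlap, which with 14 peaks allows a share of up to 21.5% (Wilson).

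The strongest of these H3K4me3 signals was on chr10:88963035-88964124, where RNAPII had 90 tags at 34.9-fold and H3K4me3 had 38 tags at 35.8-fold with an FDR of 6.55%. At chr4:9002195-9002740 RNAPII had 48 tags at 37.4-fold and H3K4me3 44 tags at 30.5-fold, with an FDR of 5.41%. The others were chr20:43857930-43858608 (RNAPII 20.04-fold, H3K4me3 30.5-fold), chr1:171282988-171283653 (44.1-fold and 29.2-fold) and chr8:7085542-7085853 (45.4-fold and 29.2-fold). In all 5 the summits lay 68 to 244 bp apart, and all 5 H3K4me3 peaks failed the filter by their FDR, of 5.41% to 10.05%. At the second farthest peak, on chromosome 4 at 132646143, the summits were 4 bp apart, with 26 RNAPII tags and 15 H3K4me3 tags.

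**Figure D5:**
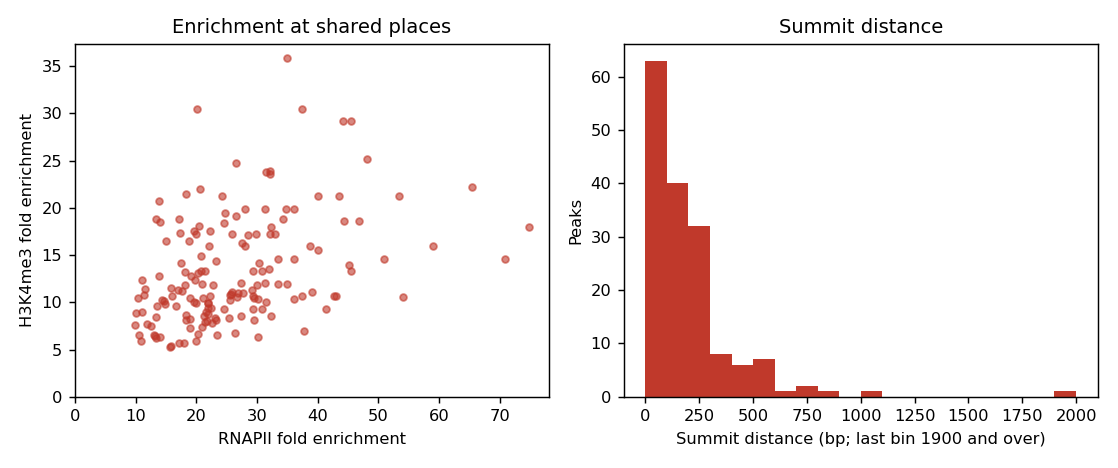
The 162 distant RNAPII-only peaks that overlap an H3K4me3 peak left out by the authors' filter: RNAPII fold enrichment against H3K4me3 fold enrichment (left, 1 point per RNAPII peak) and the distance in bp between both summits (right, 100 bp bins). H3K4me3 enrichment runs from 5.30- to 35.8-fold, and 103 of the 162 summit pairs lie within 200 bp.

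Peaks of the same territory with left-out TAF3 carried weak H3K4me3 more often. An H3K4me3 peak below the filter was present at 9.76% of the distant RNAPII-only peaks and at 39.1% (318 of 814) of the RNAPII peaks beyond 50 kb that overlapped a left-out TAF3 peak, a difference of -29.3 points (-33.0 to -25.7). The RNAPII-only peaks more often had an RNAPII neighbour within 10 kb, 53.9% against 30.3%, a difference of 23.5 points (19.5 to 27.4). Enrichment of at least 50-fold was found in 1.99% of the RNAPII-only peaks and in 16.0% of the others. Of the 1659, 642 (38.7%) had neither an overlap with H3K4me3 below the filter nor a filtered RNAPII neighbour within 10 kb. Overlap with filtered H3K4me3 was excluded by the selection. The 642 had medians of 19.4-fold RNAPII enrichment and 1110 bp width. Their joint share was not measured in other RNAPII peaks. Taken singly, the conditions were met by 1497 and 765 of the 1659, and by 7897 and 1801 of all 8337 RNAPII-only peaks.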

How the data were processed

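HCT116 cells were fixed for 10 min in 1% formaldehyde, and libraries were read for 36 bp, per the labels' protocols. The submitters' processing notes name CASAVA 1.8.2, MACS 1.4.2 and build hg19. No aligner is named in the sources used here. Peaks were called by the authors for each antibody against the same input with a p cutoff of 1e-05 and 1 tag kept per position, per the file headers, which bounds tag counts at dense places. The deposited values per peak are a tag count not scaled for depth, a fold enrichment (ratio) over local input, a score (minus 10 times log10 of p) and an FDR in percent. The filtered lists equalled a fold above 5 and an FDR below 5% for all 3 antibodies when checked.

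Overlap needed at least 1 bp, and distances ran from edge to edge. Shares have Wilson intervals, differences Newcombe intervals, medians order-statistic intervals and densities exact Poisson intervals, all at 95%. The regions named are the 10 of highest fold enrichment, 5 each by tags, distance to TAF3 and left-out H3K4me3 enrichment, 3 on either side of the limit and the 5 largest groups. The members and lists were chosen with earlier results of these data known. Alternatives varied the distance, width, lists and chromosomes. The gene and sequence tables at hand were on another build, so genes and sequence are not analysed here. Python 3.11.15, pandas 2.3.3, numpy 2.4.6, scipy 1.17.1 and matplotlib 3.10.9 were used. The code passed 5 of 5 checks on simulated and real lists, including the member count against bedtools 2.31.1.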

Additional observations from a re-analysis of the deposited data

How the results depend on the processing

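Of 46 alternative values for 7 results, 20 fell inside the reported value's 95% interval and 26 fell outside it. With a limit of 25 kb in place of 50 kb (3030 peaks), median enrichment was 16.9-fold, width 1489 bp, the share with left-out H3K4me3 7.89%, the share with an RNAPII neighbour 58.7% and density 1.23 per Mb. With 100 kb (765 peaks) these were 18.99-fold, 1222 bp, 12.9%, 47.97% and 0.43 per Mb, and 3.53% had a filtered H3K4me3 peak within 10 kb. With no width limit the width was 1420.0 bp and the density 0.80 per Mb. With distance measured to the full TAF3 list (1040 peaks), 44.3% had a neighbour, 1.15% had H3K4me3 within 10 kb and the density was 0.52 per Mb. With RNAPII enrichment above 10 the values were 19.0-fold, 1257 bp, 51.2% with a neighbour and 0.69 per Mb. With the full RNAPII list (9736 peaks) they were 10.2-fold, 610.0 bp, 5.63% with left-out H3K4me3, 70.5% with a neighbour and 4.49 per Mb. These settings change which peaks are counted. Leaving out chromosomes X and Y moved density to 0.79 per Mb, inside its interval, as were its other values. The 4 comparisons of left-out H3K4me3 between the distant peaks and those at 10 to 50 kb were chosen after seeing the data. The difference of 4.99 points became 1.57 with an RNAPII FDR below 2.5%, and the cause was not tested. It was 6.58 points among peaks without a neighbour, 4.49 with the H3K4me3 summit inside the RNAPII peak and 4.62 without peaks near filtered H3K4me3. With 1 library per antibody no replicate could be left out, and weak peaks near the filter are limited by depth.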
